A study of Mus musculus with 9 samples.

Results

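RNA refolded outside the cell was compared with RNA probed inside untreated mouse embryonic stem cells, nucleotide by nucleotide, along conserved 5′ untranslated regions (5′ UTRs). The comparison used 6 of the 9 samples of the series, chosen by their labels: 3 in vitro refolded and 3 untreated. All samples came from E14 cells, a laboratory line of mouse embryonic stem cells whose genotype is labelled E14TG2a, and the labels state that the replicates of a condition were collected independently. Untreated cells had no ATP depletion and were exposed in suspension, buffered with 250 mM bicine, to 1.6% dimethyl sulfate (DMS) at 37 °C, which lasted 6 min. For the refolded RNA the labels give the group name and the replicate, while the sources used here give neither its refolding buffer nor its DMS exposure. Both groups carried the same treatment of the RNA afterwards as far as the labels describe it: total RNA was reverse transcribed and amplified with pooled primers as amplicons of 250 nt.

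DMS methylates the base-pairing face of A and C where that face is not held in a base pair or covered, and the modified base is read as a mutation in cDNA. The signal along an RNA is therefore read as a map of accessible A and C. In a living cell a 5′ UTR is met by scanning ribosomes, helicases and RNA-binding proteins, whereas purified RNA refolds without them. Long conserved 5′ UTRs are known for stable helices, upstream reading frames and protein-binding elements that tune how much protein is made from an mRNA.

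The table covered 161 amplicons of 69 transcripts, 51 of them read by more than 1 amplicon, and 32967 nucleotides, of which 16187 were A or C. Each value was the log2 of a mutation count per 1000000 counts of the same amplicon and library (CPM), recovered as described under the processing. A CPM value therefore gives a nucleotide's share of the signal of its amplicon, and an overall gain or loss of reactivity in an amplicon cannot be seen. No sample without DMS was analysed here. The untreated samples held 9746013, 11041359 and 12116137 counts and the in vitro samples 7143584, 5743965 and 10530190. The median per amplicon library was 43277 to 47779 counts in untreated cells and 20121 to 36334 in vitro, and 117 of 161 amplicons had at least 5000 counts in every one of the 6 libraries. Depth was thus lower in vitro.

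Stretches of neighbouring A and C whose mean signal changed are described first. The sequences of 10 of them are shown because the results on Ddx17, Eif5, Ext1, Brd2, Cnot3, Ptp4a2 and Smad6 rest on them. The sequences are copied 5′ to 3′ from the deposited table, with T for U. Capitals mark the 5 tested A and C of the strongest window, and lower case letters are the bases between and around them. Positions are those of the table, counted along the RefSeq transcript; whether the count starts at 0 or 1 is not stated.
Ddx17 window 779 to 784, higher in vitro: catagggtAAtCACaaaccaag
Ddx17 window 647 to 654, lower in vitro: aagttcttCtACAttCtagcttcg
Eif5 window 201 to 212, higher in vitro: tcccgctgCtCggCggCggCacctgccc
Eif5 window 215 to 221, lower in vitro: ggcggcacCtgCCCAgccgcccc
Ext1 window 417 to 423, higher in vitro: gttctccaCgCCgCCgagaggaa
Ext1 window 452 to 463, lower in vitro: ggcagtcaCttCgtCttgCCattgattg
Brd2 window 1577 to 1582, lower in vitro: gccggtccCgCAACgaggctga
Cnot3 window 284 to 291, lower in vitro: ctgtcgcgAtACgCtCcgcagcgg
Ptp4a2 window 84 to 90, lower in vitro: cgctcccgCCtCCgCcggccttc
Smad6 window 163 to 174, higher in vitro: cgccaaacCtcgCtgggACCgcggggcc

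A window was 5 neighbouring tested A and C of an amplicon, with a median span of 8 nt, and its value was the mean of log2(CPM + 3223) over them. The added constant keeps weak nucleotides from dominating and makes a log2 change understate the fold change of weak signal. Of 15534 windows, 1891 were called with limma at a Benjamini-Hochberg adjusted p under 0.05, which is 12.2% of those tested. In vitro, 925 windows rose (5.95%) and 966 fell (6.22%), and the 5th and 95th percentiles of all window changes were -0.41 and 0.34. The share of rises among calls, 48.9%, moved with the scale. It was 35.0% with a pseudocount of 0.1 times the median, 29.0% on the deposited log2 values, 75.3% after low values were filtered out and 64.0% after A and C were centred separately in each amplicon. Calls were fewer without any one library: 647, 369 and 530 without untreated replicates 1, 2 and 3, and 1139, 1109 and 1360 without in vitro replicates 1, 2 and 3. After every amplicon was thinned to its smallest library, 1551 windows were called.

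Called windows of the same direction that shared a nucleotide were joined into clusters. There were 335 clusters that rose, on 129 amplicons of 60 transcripts, and 317 that fell, on 133 amplicons of 66 transcripts. Clusters were counted in each amplicon, and with overlapping ones of a transcript merged they made 295 distinct stretches that rose and 277 that fell. Clusters were short, with a median span of 11 nt for rises and 12 nt for falls, and reached 65 nt and 59 nt. All transcripts but Flrt3 held at least 1 cluster, and 58 of the 69 held both kinds, as did 109 of the 161 amplicons. Values are shares of the signal of an amplicon, so a rise in one place lowers the shares elsewhere. The presence of both kinds is therefore partly set by the scaling. Rising clusters were 45.0% A and falling clusters 33.8% A, against 42.3% of all tested nucleotides. In 131 rising and 92 falling clusters no nucleotide passed the test alone in the same direction. Clusters did not change as a block: 80.3% of nucleotides in rising and 81.5% in falling clusters had the direction of their cluster. All nucleotides had it in 86 rising and 61 falling clusters, and 31 and 42 nucleotides were called in the opposite direction.

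Some positions were read by a second, overlapping amplicon, which is a separate amplification from the same RNA and not a further biological replicate. Of 119 rising clusters with a second reading, 118 had the same direction there and 63 were called again. Of 103 falling clusters with a second reading, 102 had the same direction and 49 were called again, and none of either kind was called in the opposite direction. A stretch with clusters in both amplicons can enter these counts from each side.

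Ddx17 encodes a DEAD-box RNA helicase that also acts as a transcription coactivator, and its 5′ UTR held the largest rise among windows of amplicons with the depth stated above and no overlap of replicates. The window 779 to 784 had 1559, 1694 and 1806 CPM in the untreated samples and 10755, 10352 and 9506 CPM in vitro. The 3 in vitro values were close to each other and all above the untreated ones, a 6.05-fold difference of the means with a change of 1.40 ± 0.06 (SE) in window log2 value (limma adjusted p = 0.00122). All 5 nucleotides rose and passed the test alone. The absence of overlap was a condition for naming a window, and 36.6% of all windows met it. In the overlapping amplicon 731 to 981 the same window rose by 1.21 on the log2 scale (limma adjusted p = 0.00122).

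The steepest fall in Ddx17 lay upstream of that, at 647 to 654, a stretch that was bright in cells. Untreated samples had 9739, 10450 and 11621 CPM and in vitro samples 2114, 2665 and 4025 CPM. The log2 change was -1.19 ± 0.13 (SE) (limma adjusted p = 0.00445), again with all 5 nucleotides called. A further stretch at 591 to 595 was almost silent in cells: 1068, 1022 and 824 CPM in cells against 7628, 8273 and 6896 CPM in vitro, a log2 change of 1.26 (limma adjusted p = 0.00123). The stretch from 831 behaved alike in both amplicons that read it, at 693 ± 54.6 CPM (SD, n = 3) in cells and 4705 ± 108 CPM in vitro in the amplicon 639 to 889, and at 575 ± 69.1 and 4746 ± 390 CPM in the amplicon 731 to 981.

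Clusters of opposite direction followed each other along the Ddx17 5′ UTR, though rises and falls within an amplicon are not independent when values are shares of its signal. In the amplicon 731 to 981 a fall at 769 to 774 was followed by rises at 772 to 787, 790 to 805 and 812 to 864, a fall at 850 to 877, a rise at 872 to 889 and a fall at 886 to 913. The windows of neighbouring clusters can share nucleotides at their edges. The fall at 850 to 877 had a strongest window with 10127, 11666 and 12645 CPM in cells and 4758, 3626 and 4791 CPM in vitro. The signal in cells was low where the clusters rose, down to 575 CPM in the window from 831.

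Eif5 encodes the initiation factor that triggers GTP hydrolysis by eIF2 when the start codon is met. Its strongest rise and strongest fall were next to each other in the GC-rich stretch printed above. The window 201 to 212, made of 5 C, had 7645, 7652 and 8060 CPM in untreated cells and 21738, 20542 and 21186 CPM in vitro. The means differed 2.72-fold, with a change of 0.88 ± 0.05 (SE) in window log2 value (limma adjusted p = 0.00139), and 4 of the 5 C rose and were called. From 215 to 221, just downstream, the untreated samples had 4456, 4555 and 4448 CPM and the in vitro samples 1322, 1012 and 1016 CPM. Here all 5 nucleotides fell, by 0.81 ± 0.06 together on the log2 scale (SE; limma adjusted p = 0.00174).

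The Eif5 amplicon 116 to 366 changed along most of its length. A rising cluster of 25 nucleotides at 142 to 196 came first. After the pair just described, a rise at 221 to 231, falls at 228 to 246 and 248 to 277, and rises at 283 to 302 and 329 to 334 followed. Within 248 to 277 lay a run of 7 neighbouring A and C, from 256 to 269, each of which fell and passed the test alone. Signal in vitro was concentrated on few C: C295 had 41830 ± 2015 CPM (SD, n = 3) in cells and 87552 ± 3660 CPM in vitro, and C175 had 11463 ± 879 and 42618 ± 1068 CPM.

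Ext1 encodes a glycosyltransferase that builds heparan sulfate chains. Its window 417 to 423, 5 C interrupted by G, had 9131, 7616 and 8692 CPM in cells and 18673, 18257 and 14830 CPM in vitro in the amplicon 210 to 460. The means differed 2.03-fold, and the window log2 change of 0.79 ± 0.10 (SE; limma adjusted p = 0.00668) had a second reading of 0.72 in the amplicon 375 to 625 (limma adjusted p = 0.00174). The folding program gave these C a mean probability of 0.00324 of being unpaired, so the signal rose in a stretch predicted to be paired. Further downstream the window 452 to 463 fell from 5258, 5228 and 5157 CPM to 1512, 1583 and 1571 CPM, with a change of -0.78 ± 0.05 (SE) in window log2 value (limma adjusted p = 0.00154). The groups did not overlap in either window, which the naming rule required. Ext1 carried 21 rising and 19 falling clusters over its 5 amplicons, of which 575 to 825 and 581 to 831 read almost the same stretch.

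**Figure D1:**
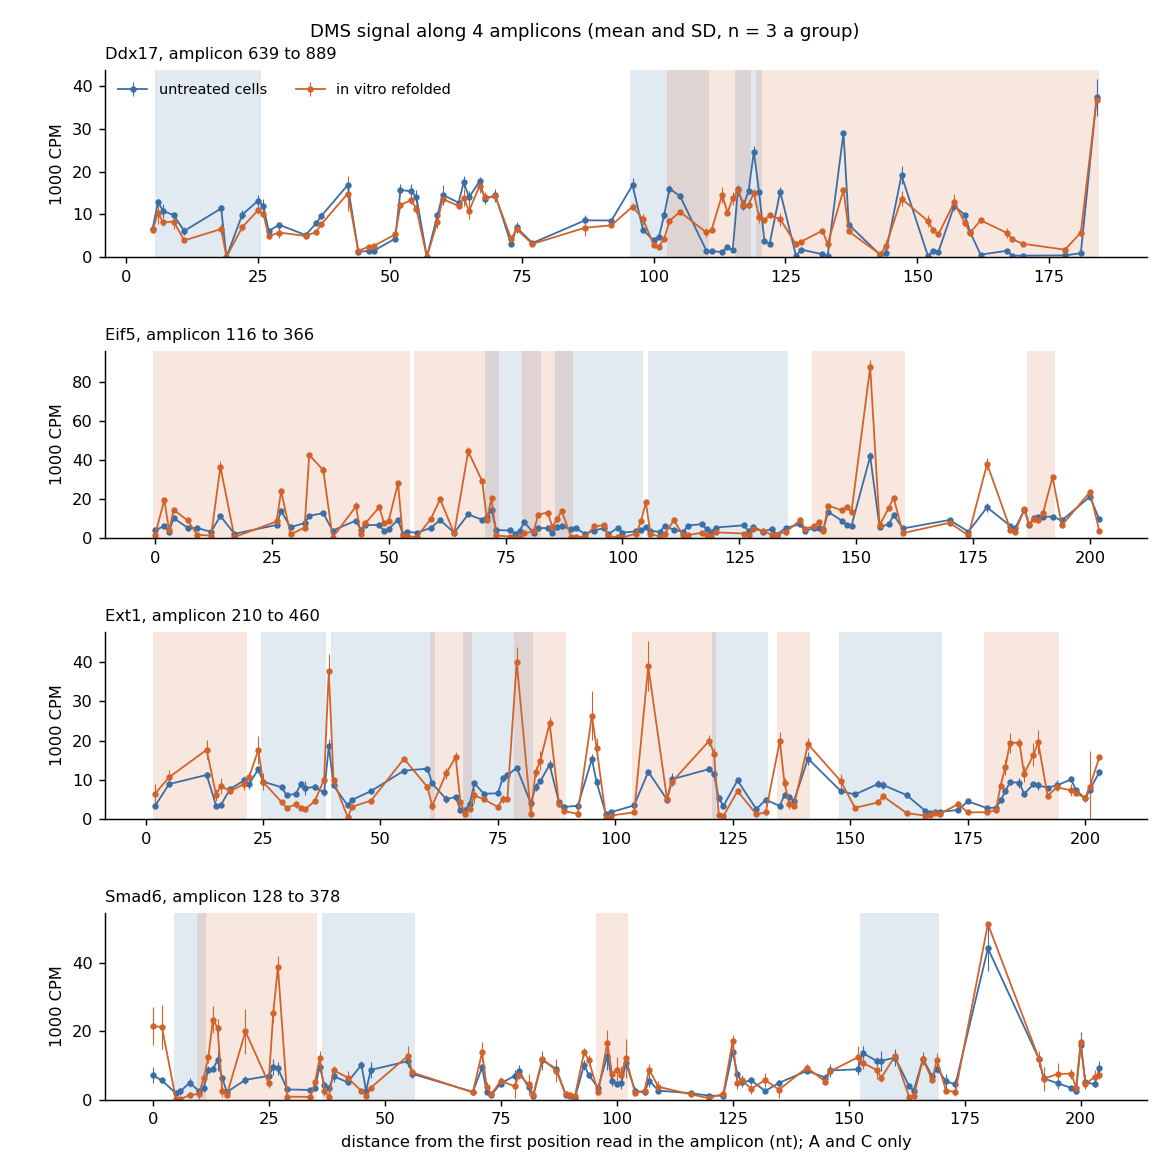
DMS signal of each tested A and C (mean and SD of 3 samples a group, in 1000 CPM) against the distance from the first position read, for amplicons of Ddx17, Eif5, Ext1 and Smad6. Shading marks called clusters, orange where the in vitro signal was higher and blue where it was lower, and darker shading where clusters of both kinds overlap. Bright and dark stretches alternate, and the highest Eif5 point, C295, lies at 41830 CPM in cells and 87552 CPM in vitro.

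Brd2 encodes a bromodomain protein that binds acetylated histones, and its 5′ UTR had the largest fall of all windows named by the rule. The window 1577 to 1582 had 5647, 6702 and 6313 CPM in cells and 783, 1351 and 738 CPM in vitro, a 6.50-fold difference without overlap (log2 change -1.19 ± 0.07, SE; limma adjusted p = 0.00139). In the amplicon 1433 to 1683 it fell by 1.13 on the log2 scale (limma adjusted p = 0.00126). In the amplicon 1524 to 1774 it sits in a cluster from 1562 to 1587, in which 13 of 15 nucleotides had a lower signal in vitro and 7 were called. The 2 others were called as higher in vitro. Short rises flanked this cluster, at 1550 to 1559 and 1590 to 1598.

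Cnot3 is a subunit of the CCR4-NOT complex, which shortens poly(A) tails. Its window 284 to 291 had 8449, 7067 and 7552 CPM in cells and 2972, 2862 and 3239 CPM in vitro (log2 change -0.83 ± 0.07, SE; limma adjusted p = 0.00190). A second amplicon gave -0.71 (limma adjusted p = 0.0135). Zc3h6, which encodes a CCCH zinc finger protein, had a fall at 261 to 267 from 8115, 8578 and 10233 CPM to 4301, 3741 and 4060 CPM (limma adjusted p = 0.00384), and its second reading was -0.66 (limma adjusted p = 0.0223). Both stretches were thus lower in vitro in each amplicon that read them.

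Ptp4a2 encodes a protein tyrosine phosphatase of the PRL family. Its window 84 to 90, made of 5 C, fell from 5853, 8032 and 6786 CPM to 1758, 2194 and 1603 CPM (log2 change -0.88 ± 0.09, SE; limma adjusted p = 0.00384), with a lower signal at 4 of the 5. With A and C centred separately in each amplicon, this all-C window fell by 0.40 (limma adjusted p = 0.0226). Smad6, an inhibitor of BMP signalling, rose at 163 to 174 from 6205, 6750 and 7339 CPM to 20333, 17025 and 17004 CPM (log2 change 0.74 ± 0.09, SE; limma adjusted p = 0.00586). This rise came from 3 of the 5 nucleotides, each called alone.

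In 6 of the named windows the support was narrower. The Tulp4 rise at 200 to 205 was 0.70 on the log2 scale (limma adjusted p = 0.00247), and its second reading was 0.35 (limma adjusted p = 0.147). The Sertad2 fall at 138 to 144 was -0.93 (limma adjusted p = 0.00398) in an amplicon whose smallest library held 7880 counts, against -0.21 (limma adjusted p = 0.318) in the second amplicon. The remaining 4 lost their call without some single libraries. Hipk3 at 501 to 510 (log2 change 0.76, limma adjusted p = 0.0234) had 0.0934 and 0.0855 without untreated replicates 2 and 3, and 0.0523 and 0.0573 without in vitro replicates 1 and 3. Taok2, which encodes a kinase acting on microtubules and MAPK signalling, had a rise at 473 to 484 of 0.74 (limma adjusted p = 0.0266), with 0.0790, 0.0823 and 0.0765 without untreated replicates 1, 2 and 3 and 0.0589 without in vitro replicate 2. The fall at 510 to 518 in the same Taok2 amplicon, -0.88 (limma adjusted p = 0.0477), passed in none of the 6 fits that left out 1 library, at adjusted p from 0.0573 to 0.139, and its second reading was -0.47 (limma adjusted p = 0.141). With A and C centred separately this fall was -0.41 (limma adjusted p = 0.254), and the Taok2 rise was 1.25 (limma adjusted p = 0.0122) after division by the amplicon median. Tmtc2 at 523 to 530 (0.64, limma adjusted p = 0.0371) was called without in vitro replicate 3 alone (0.0315), at 0.0776 to 0.0952 without the others. The other 16 named windows kept their call without any one library.

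**Figure D2:**
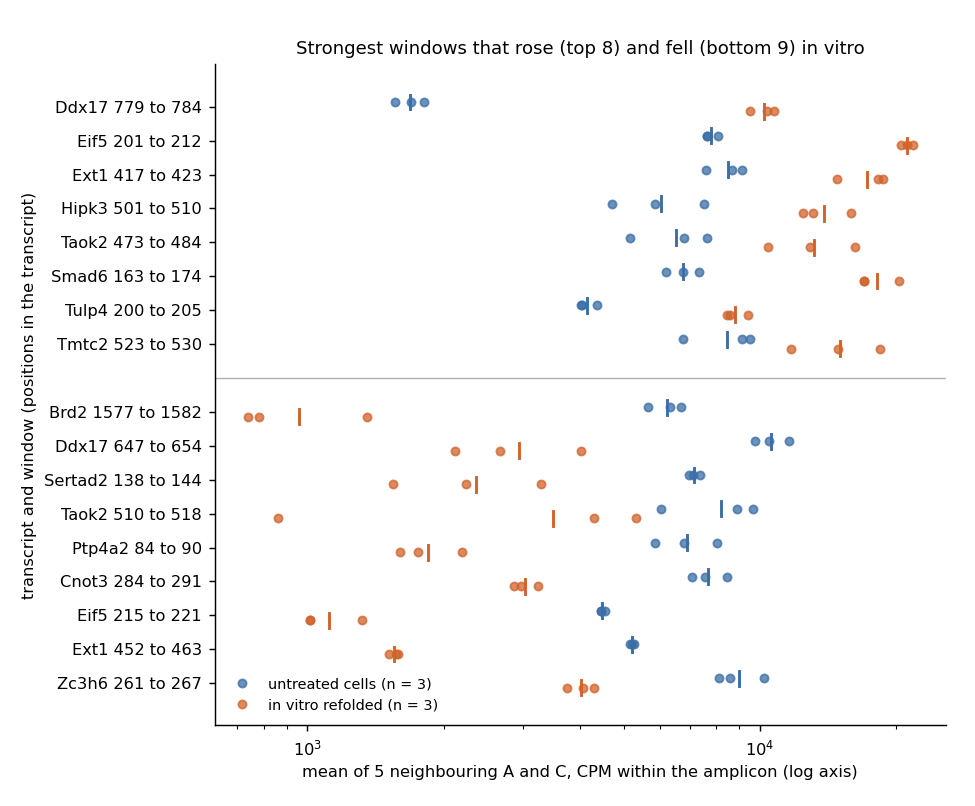
Mean CPM of the 5 A and C of 17 named windows, on a log axis, with 1 point for each of the 3 untreated (blue) and 3 in vitro (orange) samples. The 8 windows that rose are above the line and the 9 that fell below it; the groups are farthest apart in Ddx17 779 to 784 (6.05-fold) and Brd2 1577 to 1582 (6.50-fold), and do not overlap in any window, as the naming rule required.

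Single nucleotides were tested too. Of 16178 tested A and C, 1335 were called (8.25%, limma with Benjamini-Hochberg adjustment), 645 upward (3.99%) and 690 downward (4.27%) in vitro, and 4327 had an unadjusted p under 0.05. Of 6836 A, 6.5% were called, with 320 rises (4.68%) and 124 falls (1.81%). Of 9342 C, 9.54% were called, with 325 rises (3.48%) and 566 falls (6.06%). The values of the replicates did not overlap between the groups at 34.1% of all nucleotides. Rises were 48.3% of calls, against 40.6% on the deposited log2 values, 62.8% with low values filtered and 62.0% with A and C centred separately. These calls fell further than those of windows when any 1 library was left out, and each such fit also had fewer samples. Without untreated replicates 1, 2 and 3, 89, 0 and 0 remained, where 3615, 3240 and 3403 had an unadjusted limma p under 0.05. Without in vitro replicates 1, 2 and 3, 342, 480 and 597 remained, where 4115, 4112 and 4229 had an unadjusted limma p under 0.05. The median SE of a log2 change was 0.17 for a nucleotide and 0.08 for a window. In amplicons with at least 5000 counts in every library 9.93% of nucleotides were called, and 3.89% in the others.

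Neighbours changed in the same direction over very short distances. Of 16017 pairs of neighbouring tested A and C, 346 had both nucleotides called, and in 262 of these (75.7%) the direction was the same. Over all pairs, called or not, 57.1% had the same sign. Across pairs of directly adjacent nucleotides in the RNA, the log2 changes correlated at r = 0.30 (8148 pairs), with 0.35 between A and A, 0.36 between C and C and 0.19 between A and C. At 2 nt the overall r was 0.11 and at 3 nt 0.04, where C with C kept 0.15 and A with C was -0.10. These pairs share libraries and amplicons, so the values describe the table; with each base and amplicon centred, the r of adjacent nucleotides was 0.27. Runs of at least 4 neighbouring called nucleotides numbered 13 upward and 9 downward, counted in each amplicon, so that Ddx17 779 to 784 was counted in both amplicons that read it. Ddx17, Eif5, Ext1, Brd2, Cnot3 and Tle4 were among the transcripts that held them. The Tle4 run lay in a shallow amplicon, 479 to 729, with 682 counts in its smallest library.

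**Figure D3:**
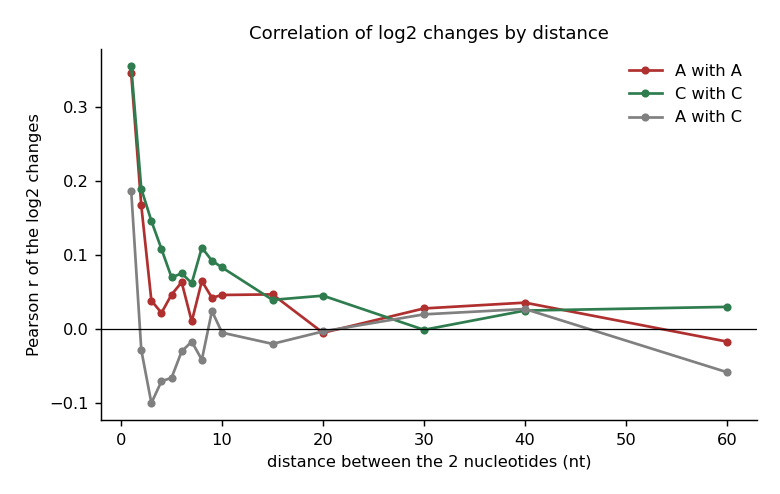
Pearson r of the log2 changes of 2 tested nucleotides of an amplicon against their distance in nt, for A with A, C with C and A with C. The values at 1 nt are 0.35, 0.36 and 0.19, and at 3 nt C with C has 0.15 and A with C -0.10.

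Transcripts differed in how much of their 5′ UTR changed. Among the transcripts with the highest shares of called nucleotides were Ddx17 (121 of 408, 29.7%, with 75 up and 46 down), Eif5 (91 of 329, 27.7%), Ext1 (101 of 480, 21.0%), the activin receptor gene Acvr2a (13 of 79, 16.5%) and Cnot3 (37 of 226, 16.4%). The median over the 69 transcripts was 6.32%, beside 8.25% of all nucleotides. Rises and falls were both present in each of these 5, which the scaling to shares of an amplicon favours. Changes in Acvr2a were few but placed apart, with 1 rising cluster at 244 to 262 and 1 falling at 353 to 376. At the low end were Nlk (1.39%), Bcl2 (1.04%), Ptprg (1.02%) and Flrt3, with 0 of 94 called. Their smallest libraries held 8140, 3247, 2067 and 711 counts, against 24049, 68424 and 26034 for Ddx17, Eif5 and Ext1. Ptprg was not shallow throughout: the 2067 counts were in its amplicon 206 to 456, and the smallest library of its amplicon 463 to 713 held 59361. The part of depth in these shares was not tested.

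Counts of called windows in these transcripts fell when single libraries were left out. Ddx17 had 179 called windows of 388, and 117, 83 and 112 without untreated replicates 1, 2 and 3, or 145, 134 and 160 without in vitro replicates 1, 2 and 3. Ext1 had 138 of 460 and Eif5 89 of 317, and each was lowest without untreated replicate 2, at 29 and 26. Without untreated replicates 1 and 3 these were 52 and 42 for Ext1 and 41 and 41 for Eif5. Without in vitro replicates 1, 2 and 3 they were 78, 82 and 87 for Ext1 and 53, 55 and 56 for Eif5. Cnot3 went from 57 to 17, 5 and 5 without untreated replicates 1, 2 and 3 and to 23, 21 and 22 without in vitro replicates 1, 2 and 3. Acvr2a went from 10 to 3, 3 and 2, and to 7, 6 and 6, in the same order.

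Grouped by function, 3 chosen lists of genes were read against the 8.25% of all nucleotides. The lists do not hold every measured gene of a function: Ube3a (7.69% called), Ctcf and Hexim1, for example, were in none of them. Chromatin genes (7 of 29 measured) had 6.65% of their nucleotides called, with 54 rises and 89 falls. Transcription regulators (7 of 23) had 7.27%, with 48 rises and 74 falls, and ubiquitin genes (2 of 10) 6.26%, with 20 and 22. Shares within a list differed, from 1.54% to 10.7% among chromatin genes and from 2.18% to 11.2% between the ubiquitin genes Rnf10 and Ube4b. Among genes of RNA and translation, Ddx17 and Eif5 are described above, while the RNA helicase gene Ddx6 had 7.18% and R3hdm1 2.91%.

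**Figure D4:**
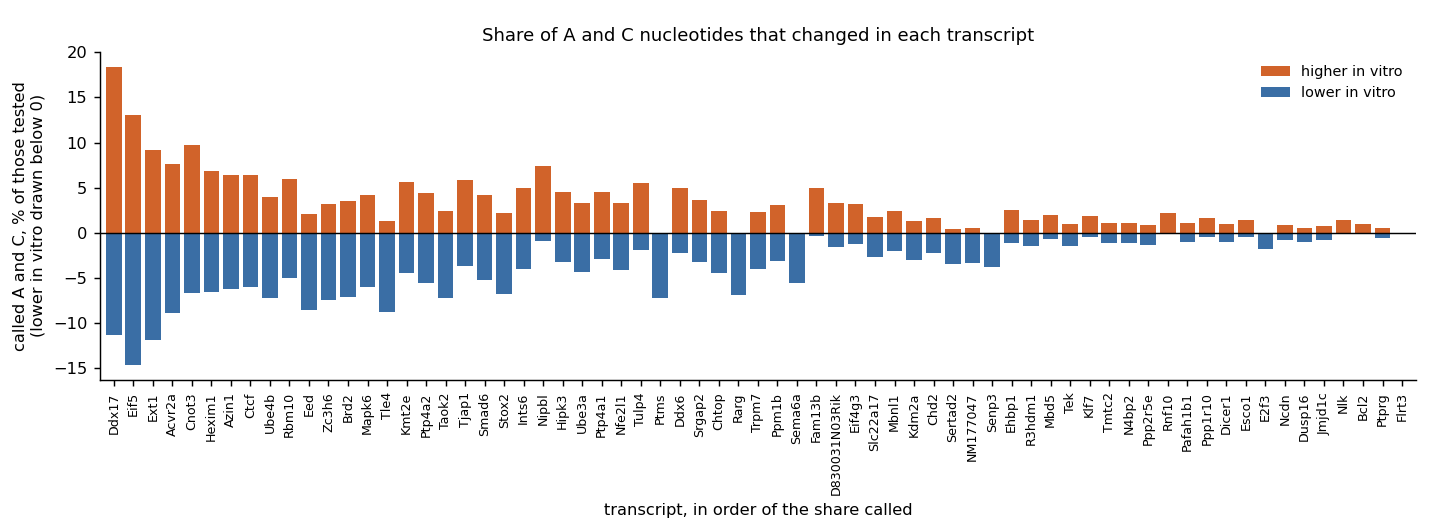
Share of tested A and C called in each of 67 transcripts, in percent, with rises in vitro drawn above 0 (orange) and falls below (blue), in order of the share called. Ddx17 (29.7%), Eif5 (27.7%) and Ext1 (21.0%) lead, and Flrt3 has none.

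Whole profiles differed beyond replicates in part of the amplicons. The Pearson correlation of log2 values along an amplicon had a median over amplicons of 0.874 between untreated replicates, 0.849 between in vitro replicates and 0.756 between the groups. The mean between the groups ranged from 0.394 to 0.953. In 58 of 161 amplicons (36%) every correlation within a group exceeded every one between groups, and 57 of these were among the 117 amplicons with at least 5000 counts throughout. All 5 amplicons of Ddx17 and all 5 of Ext1 were separated in this way. In Ddx17 503 to 753, for example, the lowest correlation within a group was 0.921 and the highest between the groups 0.631.

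Signal in vitro was spread less evenly along most amplicons. The Gini coefficient, which is 0 for equal signal at all tested A and C and rises as signal concentrates on fewer, was higher in vitro in 157 of 161 amplicons. With limma 124 were called (77%), 121 upward (75.2%) and 3 downward (1.86%), and the median change over all amplicons was 0.0923. The sample medians were 0.363, 0.320 and 0.335 in cells and 0.429, 0.435 and 0.398 in vitro, which do not overlap (exact two-sided permutation p = 0.1, the smallest that 3 against 3 samples allow). After every amplicon was thinned to its smallest library, 120 were called. Among the largest rises were Ext1 210 to 460, from 0.292 ± 0.00930 to 0.490 ± 0.0142 (SD, n = 3; limma adjusted p = 0.000207), and Taok2 375 to 625, from 0.362 ± 0.0330 to 0.528 ± 0.0236 (SD, n = 3; limma adjusted p = 0.00124). Eif5 116 to 366, described above, rose by 0.25, and Brd2 1433 to 1683 and 1524 to 1774 by 0.21 and 0.19, or by 0.13 for the first with low values filtered and 0.11 for the second with A alone. The 3 falls were Ddx17 639 to 889 and 731 to 981, and Tulp4 0 to 250 (0.404 ± 0.00738 to 0.364 ± 0.00783, SD, n = 3; limma adjusted p = 0.0110). The Ddx17 731 to 981 fall was not called with low values filtered (adjusted p = 0.255), nor that of Tulp4 with C alone (adjusted p = 0.136), while the Tulp4 change of -0.04 was -0.08 with A alone and -0.07 with low values filtered or amplicon ends left out.

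A gained signal relative to C in vitro. The log2 ratio of mean A to mean C within an amplicon, which does not depend on how a library is scaled, was higher in vitro in 127 of 161 amplicons, with a median change of 0.15. With limma 42 were called (26.1%), 41 upward (25.5%) and 1 downward (0.621%), and 25 were called without untreated replicate 2. The largest was Brd2 1524 to 1774, with 0.83, 0.64 and 0.69 in cells and 1.49, 1.37 and 1.37 in vitro (limma adjusted p = 0.00258). Ctcf, the gene of the insulator-binding zinc finger protein, went from 0.94, 0.81 and 0.99 to 1.52, 1.62 and 1.53 in its amplicon 56 to 306 (limma adjusted p = 0.00258). Hexim1, whose protein holds the elongation factor P-TEFb inactive, went from 1.11, 1.10 and 1.13 to 1.74, 1.75 and 1.77 in 219 to 469 (limma adjusted p = 0.00120). The groups did not overlap in any of these 3, as the naming rule required, nor in 44.1% of all amplicons. With medians in place of means, the change of Brd2 was 1.68 instead of 0.69 and that of Ctcf 1.06 instead of 0.64, and with low values filtered that of Brd2 was 0.44. The single called fall was Eif5 116 to 366, from 0.62, 0.51 and 0.61 to 0.30, 0.25 and 0.27 (limma adjusted p = 0.00955). It had the opposite sign, 0.31, when medians replaced means (limma adjusted p = 0.0637), and instead of -0.30 it was -0.58 with low values filtered and -0.70 with amplicon ends left out.

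The profiles were then set against predicted pairing. ViennaRNA folded each amplicon's sequence and gave every nucleotide a probability of being unpaired, and Spearman's rho between this and the CPM was taken per amplicon and sample. Its sample medians were 0.404, 0.440 and 0.438 in cells and 0.410, 0.394 and 0.433 in vitro, which overlap (difference -0.0151, exact two-sided permutation p = 0.4, n = 3 a group). The difference was smaller than the spread between replicates. Single amplicons did move: limma called 28 (17.4%), 13 toward a higher rho (8.07%) and 15 toward a lower one (9.32%).

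Ddx17 333 to 583 moved most toward the prediction, with 0.231, 0.183 and 0.240 in cells and 0.572, 0.598 and 0.544 in vitro (limma adjusted p = 0.000561). Ddx17 639 to 889 followed, with 0.0466, 0.0421 and 0.0454 in cells, where the profile was unrelated to the prediction, and 0.326, 0.328 and 0.238 in vitro (limma adjusted p = 0.00208). Azin1, which encodes an inhibitor of antizyme and so raises polyamine synthesis, went from 0.0441, 0.154 and 0.125 to 0.352, 0.328 and 0.296 in 419 to 669 (limma adjusted p = 0.00484). In the other direction, Ext1 210 to 460 had 0.387, 0.475 and 0.440 in cells and 0.153, 0.140 and 0.162 in vitro (limma adjusted p = 0.00183). Tulp4 0 to 250 went from 0.655, 0.663 and 0.568 to 0.358, 0.400 and 0.360 (limma adjusted p = 0.00232). Its change was 0.0040 (limma adjusted p = 0.931) when predicted pairs were limited to 100 nt apart. Smad6 851 to 1101 (limma adjusted p = 0.0490) was not called without untreated replicate 1, 2 or 3 or in vitro replicate 1 or 2, at adjusted p from 0.0745 to 0.137. With A alone only Ddx17 333 to 583 of these 6 kept its call. Its change of 0.35 was 0.14 with C alone and 0.23 with amplicon ends left out, and the Ext1 change of -0.28 was -0.44 with low values filtered and -0.13 with ends left out, all still called.

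**Figure D5:**
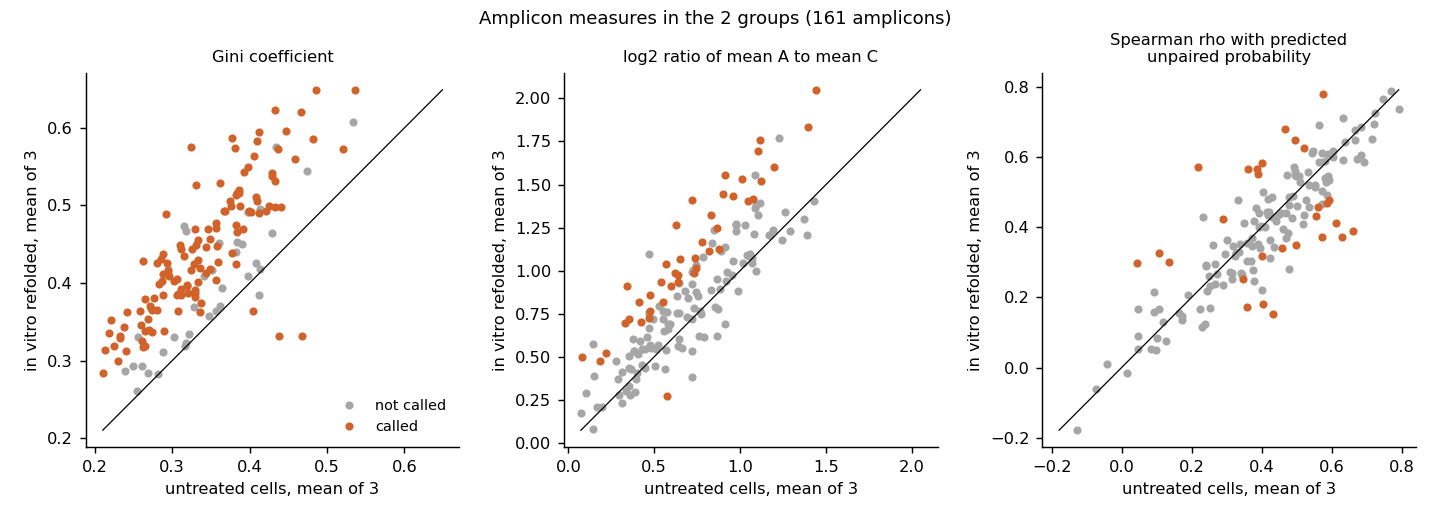
Each point is 1 of 161 amplicons, with the mean of the 3 untreated samples on the x axis and of the 3 in vitro samples on the y axis, for the Gini coefficient, the log2 ratio of mean A to mean C, and Spearman's rho with the predicted unpaired probability. Orange points were called and the line marks equality; 157 points lie above it for the Gini coefficient and 127 for the A-to-C ratio, and 71 for rho.

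Called nucleotides were also described by the prediction, which the choice of samples and calls did not use. C that fell had a mean unpaired probability of 0.285, C that rose 0.484 and C not called 0.380. A that fell had 0.449, A that rose 0.607 and A not called 0.614. In rising clusters, falling clusters and all tested nucleotides, the mean was 0.635, 0.571 and 0.611 for A and 0.431, 0.322 and 0.378 for C. Nucleotides share amplicons and folds, so these means carry no test. The medians in CPM place the calls on the scale: A that rose went from 8749 in cells to 16534 in vitro, and C that fell from 5450 to 1522.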

How the data were processed

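Targeted DMS mutational profiling data of 3 untreated and 3 in vitro refolded samples were used, grouped by their titles. The authors deposited 1 table of log2 values per nucleotide and sample. The submitters' processing notes name bcl2fastq, Bowtie2 and limma, with no role or version. The mutation counter and the reference build were not given in the sources used here. Transcripts were named by a RefSeq gene table of assembly GRCm38.p6, which matched 68 of 69. Amplicon counts do not measure expression, so markers of the cell line were not checked. All value columns were matched to a sample; 0 were left unmatched.

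The deposited log2 values of an amplicon library fitted counts per 1000000 on a log2 scale, with 0.5 added to each whole count. Whole numbers were recovered in 966 of 966 libraries, at a tolerance of 0.0001. Mutation rates and intervals need the coverage, which is unknown, and were not computed, and amplified cDNA counts are not independent molecules. Values were turned back to CPM, and log2(CPM + 3223) was taken, the pseudocount being the A and C median over the 6 samples, 6446 CPM, multiplied by 0.5. Nucleotides with a count in at least 1 sample were tested, 16178 of 16187.

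limma 3.58.1 in R 4.3.3 (lmFit, eBayes) was fitted to the 6 samples for nucleotides, windows of 5 neighbouring A and C, and amplicon measures, two-sided, with Benjamini-Hochberg adjustment over all features of a kind and a threshold of 0.05. ViennaRNA 2.7.2 folded each amplicon as read, at 37 °C. Counts were simulated from the samples' means for the same comparison (16178 nucleotides, 15534 windows), with noise drawn separately for each nucleotide. Changes were planted only in amplicons with at least 5000 counts in every library, and single nucleotides only where the mean was at least 6446 CPM. Of these, 72 of 103 nucleotides changed by log2 of 1 and 91 of 97 changed by log2 of 2 were called. So were 194 of 200 windows changed by log2 of 1, beside 46 of 14994 unchanged nucleotides and 77 of 13044 unchanged windows. The rates do not cover weaker nucleotides or shallower amplicons. Noise shared between neighbouring nucleotides and the fixed total of an amplicon were not simulated, so the window rates may not hold for the real samples. 

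Named windows were the 10 largest rises and 10 largest falls among clusters of amplicons with at least 5000 counts in every library and no overlap of replicates, at most 1 a transcript and direction. Transcripts were the 6 highest and 4 lowest shares of calls. Amplicons were the 5 rises and 3 falls of the Gini coefficient, and 3 of each for the other measures, that were largest under the same conditions. The Ddx17 windows from 591, 831 and 865 and nucleotides C175 and C295 of Eif5 were chosen after their values were seen. The members, gene lists and tests were chosen with earlier results of these data known. Some named items are not reported here, and of the gene lists those on chromatin, transcription regulators and ubiquitin are given whole. Replicate numbers were not used to pair the samples in the main fits. Deviations from group means correlated at -0.0017, 0.025 and 0.038 between samples of the same number. Between samples of different numbers the values ran from -0.040 to 0.014. Replicate 3 had the fewest counts within each group in some amplicons, such as Ptp4a2 459 to 709, and the most in others, such as Ptp4a2 41 to 291. Whether samples of the same number shared a batch was not tested.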

Additional observations from a re-analysis of the deposited data

How the results depend on the processing

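The 1335 nucleotide calls became 864 with low values filtered and 346 with A alone, and 0 to 597 when 1 replicate was left out. The 1891 window calls became 703 with A alone, 368 of 3173 windows without overlap, and 369 to 1360 with 1 replicate left out. The filter, A alone and windows without overlap each tested fewer nucleotides or windows. Gini calls changed least, with 124 in the main fit, 100 to 134 with 1 replicate left out and 122 with the replicate number as a block. A-to-C ratio calls numbered 25 to 46 and predicted-pairing calls 18 to 29 (28 with all samples) with 1 replicate left out, and 8 predicted-pairing calls were made with A alone. With the replicate number as a block, limma called 0 nucleotides (3959 at an unadjusted p under 0.05) and 671 windows, and not every sample correlated best with its own number; this block also removed the calls of Tmtc2 523 to 530 and of rho in Smad6 851 to 1101, and no other named call. Of 120 values of named windows with 1 replicate left out, 101 kept their call, and of 170 under other settings 163 did, with 0 changes of direction. The 7 others were of Tmtc2 and of the Taok2 fall. The direction changed for the Eif5 A-to-C ratio with medians (0.31) and for Tulp4 rho with pairs at most 100 nt apart (0.0040); the cause was not tested. No direction of the median sample-level Gini coefficient or rho changed under the settings run. Detection at low depth was not tested separately from that in deep amplicons. The small number of samples limits every p.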

Other observations

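Neighbouring bases went with different shares of calls, given here as descriptions. Among A, those followed by G rose in 5.69% and fell in 2.20%, and those followed by T rose in 2.81% and fell in 1.76%, against 4.68% and 1.81% of all A. Among C, those preceded by C rose in 2.24% and fell in 4.62%, and those preceded by A rose in 4.34% and fell in 6.24%, against 3.48% and 6.06% of all C. C preceded by A had the highest median signal of C by preceding base in both groups, 8021 CPM in cells and 7752 CPM in vitro, and C preceded by C the lowest, 3652 and 3084 CPM.

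Of 2636 positions with a reading in each of 2 amplicons, 117 passed the test in both. The log2 changes of the 2 readings correlated at r = 0.66 across positions, which share their RNA samples.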
